A study of Mus musculus with 6 samples.

Results

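The D-type cyclins Ccnd1, Ccnd2 and Ccnd3, their partner kinases Cdk4 and Cdk6, the Cdk inhibitors Cdkn1a, Cdkn1b, Cdkn2c and Cdkn2d, and Trp53, which encodes the tumour suppressor p53, were followed in B cells of mice with altered Ikaros. These 10 genes were taken by name from a deposited table of 22098 gene names, each represented by the transcript with the highest mean. The libraries came from sorted IgM+ B cells of the bone marrow of C57BL/6 mice aged 6 weeks, with 2 libraries of wild type, 2 of mice homozygous for loss of zinc finger 1 of the transcription factor Ikaros (Ikaros_ZnF1-/-, here the ZnF1 mutant) and 2 of mice homozygous for loss of zinc finger 4 (Ikaros_ZnF4-/-, here the ZnF4 mutant). The labels describe no treatment. They do not tell if a library stands for its own animal. The sex-linked RNAs Xist and Ddx3y, given below, differed between the 2 libraries of each mutant, which therefore did not share an animal. The wild-type libraries did not differ in this way and could share one, so part of the spread behind every p-value may be technical. Values are RPKM, reads scaled to the length of the transcript and to the number of reads in the library, and so can be set side by side between genes. Read depth is unknown.

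D-type cyclins bind and activate Cdk4 and Cdk6 early in the cell cycle, and the active kinases phosphorylate the retinoblastoma protein, which releases E2F transcription factors and lets the cell enter S phase. The INK4 inhibitors, here Cdkn2c and Cdkn2d, bind Cdk4 and Cdk6 alone. The CIP/KIP inhibitors, here Cdkn1a and Cdkn1b, bind cyclin and kinase complexes, and Cdkn1a is the best known target gene of p53. In the B lineage, cyclin D3 supports the expansion of pre-B cells and cyclin D2 the response of mature B cells to antigen receptor signals, and Ikaros is known to restrain proliferation of pre-B cells. Fingers 1 and 4 of Ikaros flank its central DNA-binding fingers.

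The libraries had the profile of B cells, with Cd79b between 1604 and 2227 RPKM and the T cell gene Cd3e between 0.2 and 0.7. Of 6 T cell markers 2 were tested, and in the ZnF1 mutant against wild type 1 fold was positive and 1 negative. The positive one, Cd4, was called higher, as were 0.0969% of all tested genes. Its level was 4.2 and 4.5 RPKM against 0.6 and 0.9. The other, Lck, lay between 11.2 and 19.9 RPKM over all libraries. ZnF1 replicate 2 stood apart in markers of other marrow cells: the summed level of 15 granulocyte and monocyte markers was 8319 RPKM there. The wild-type libraries had sums of 493 and 790, ZnF1 replicate 1 had 1535, and the ZnF4 pair had 1894 and 2096. The sum of 10 erythroid markers was 682 in ZnF1 replicate 2 against 102 to 244 elsewhere. The sum of 5 plasma cell markers was 602 RPKM in wild-type replicate 1 and between 110 and 203 elsewhere. Igj alone was at 414 RPKM in wild-type replicate 1 and at 1.1 in replicate 2. Of these markers 4 were tested. In the ZnF1 mutant against wild type all 4 folds were negative (median -1.11) and 1 was called lower, beside 0.174% of all tested genes. In the ZnF4 mutant 1 was positive, 3 were negative and 0 called. The sum of 7 pro-B and pre-B markers was 188 and 158 in the ZnF4 mutant against 40.7 to 73.1 elsewhere. This list was split in the ZnF4 mutant against wild type: Igll1, Vpreb1 and Kit rose, Rag1 fell and 3 did not pass. Called shares of all tested genes were 1.78% higher and 1.41% lower. Igll1, a surrogate light chain gene, made up most of the sum at 130 and 121 RPKM against 5.7 and 13.7 in wild type, whereas the recombinase gene Rag1 was at 4.4 and 2.2 against 14.5 and 17.6. In replicate 2 of each mutant, and in no other library, the Y-linked Ddx3y was detected and the X-inactivation RNA Xist was listed at 0. Ikzf1, which encodes Ikaros, was at 177 and 179 RPKM in wild type, 201 and 168 in the ZnF1 mutant, while the ZnF4 mutant had 287 and 244 (log2 fold change 0.58 against wild type, limma adjusted p = 0.111). Because each transcript has a single value, Ikzf1 does not show the lost finger and is no check of the genotypes.

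In the ZnF4 mutant, RNA of the inhibitor Cdkn1a fell to 25.9% and RNA of cyclin D3 to 50.0% of the wild-type mean, while none of the other 7 tested genes of this group passed the test. Both genes also passed as lower in the ZnF4 than in the ZnF1 mutant, and none of the 9 tested genes passed between the ZnF1 mutant and wild type. Tests were limma's moderated test on log2(RPKM + 0.5) over 10322 genes with a mean of at least 1 RPKM, and a gene was called at a Benjamini-Hochberg adjusted p under 0.05. The 2 calls among 9 members, both lower, stand beside 1.41% of all tested genes called lower and 1.78% called higher in the ZnF4 mutant against wild type, and 2.08% and 2.69% against the ZnF1 mutant. The members, and the lists read below, were chosen with earlier results of these data known, so such shares are no test of the group. These comparisons share the ZnF4 libraries and are not independent of each other. In sorted populations, fewer cells of a type with high levels and less RNA per cell cannot be told apart. In the ZnF4 mutant all 15 granulocyte and monocyte markers had a positive fold against wild type (median 1.66 on the log2 scale), and 0 were called. Folds over all tested genes were 52.8% negative there, with a median of -0.02. All 15 were positive in the ZnF1 mutant too, with a median of 2.43 and 0 called. Their summed level was 8319 RPKM in ZnF1 replicate 2 but 1535 in replicate 1, below the 1894 and 2096 of the ZnF4 pair. The 7 pro-B and pre-B markers were divided in the ZnF4 mutant, 4 positive and 3 negative. The part of either in the lower Cdkn1a and Ccnd3 was not tested.

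**Figure D1:**
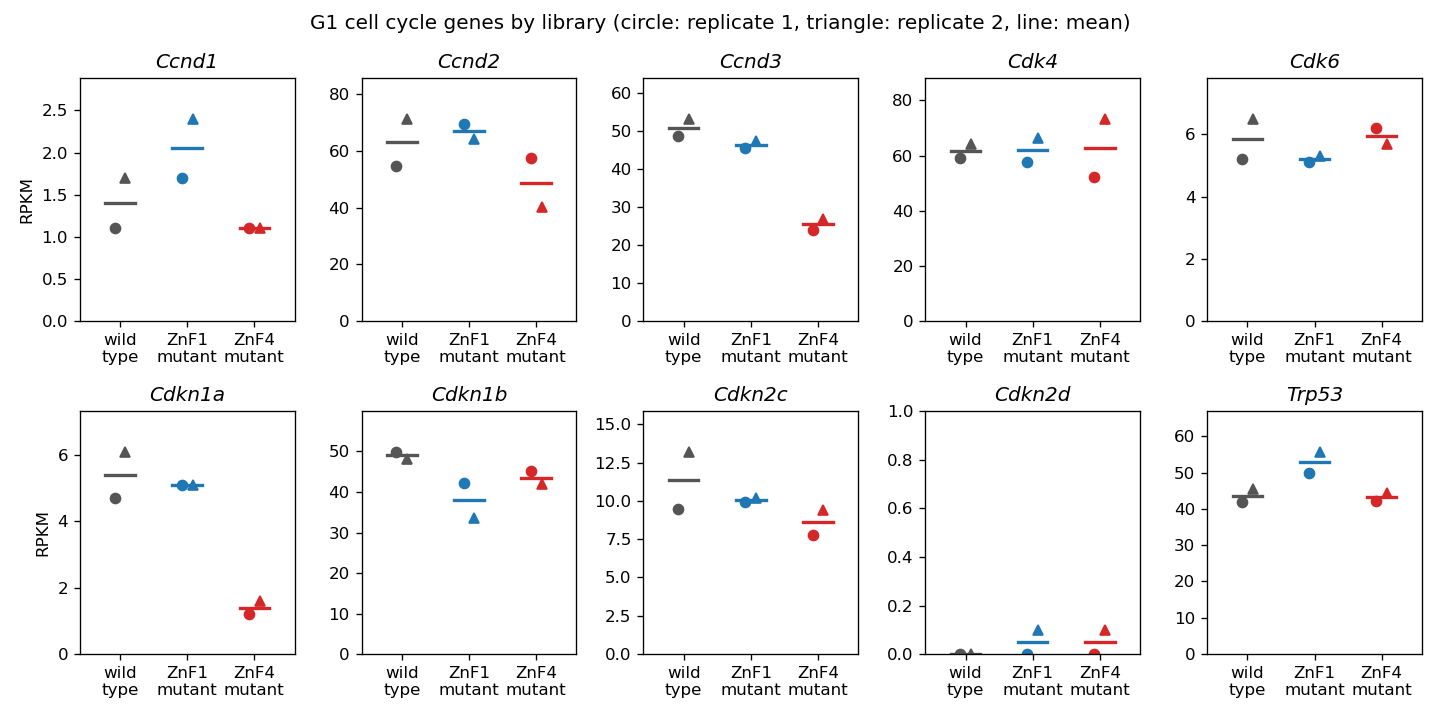
RPKM of the 10 genes (vertical axes, each from 0) in each library of the 3 genotypes (horizontal axes), with circles for replicate 1, triangles for replicate 2 and a line at the mean. The ZnF4 libraries lie at 24.0 and 27.0 for Ccnd3 and at 1.2 and 1.6 for Cdkn1a, below every other library.

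By the listed level of the highest-mean transcript, the group fell into an abundant and a scarce set. Other transcripts of a gene are left out, such as the second one of Trp53 with a mean of 19.1 RPKM. How reads were divided among transcripts was not given, and the order may depend on it. The means over the 6 libraries were 62.1 RPKM for Cdk4, 59.7 for Ccnd2, 46.6 for Trp53, 43.5 for Cdkn1b and 41.0 for Ccnd3, so these genes exceeded between 85.7% and 92.1% of the tested genes. Far below them came Cdkn2c, which ranged from 7.8 to 13.2 RPKM, and then Cdk6 with a mean of 5.67, Cdkn1a with 3.97 and Ccnd1 with 1.52, and Cdkn2d was listed near 0. In wild type the libraries of Ccnd2 overlapped those of Cdk4, those of Ccnd3 overlapped those of Cdkn1b, and those of Cdk6 overlapped those of Cdkn1a, so these neighbours in the order did not differ beyond their spread. Ordered by group mean, Ccnd3 was number 3 of the 10 genes in wild type, number 4 in the ZnF1 mutant and number 5 in the ZnF4 mutant.

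Ccnd3 encodes cyclin D3. Its level was 48.7 and 53.3 RPKM in wild type, against 45.6 and 47.4 in the ZnF1 mutant, with the ZnF4 mutant at 24.0 and 27.0. The ZnF4 libraries were the lowest and did not come near the others, and the ZnF1 libraries lay just under those of wild type. The log2 fold change was -0.99 in the ZnF4 mutant against wild type (SE 0.12, 95% interval -1.27 to -0.70, limma adjusted p = 0.00859) and -0.86 against the ZnF1 mutant (SE 0.12, adjusted p = 0.0113). Against wild type the ZnF1 mutant had -0.13, with an interval of -0.41 to 0.15. Among all tested genes, the fall of Ccnd3 in the ZnF4 mutant ranked 141 from the lowest fold change.

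Ccnd3 has 2 further transcripts in the table, and both were lowest in the ZnF4 mutant. NM_007632 was at 1.5 and 2.1 RPKM in wild type, 1.4 and 0.8 in the ZnF1 mutant, while the ZnF4 mutant had 0.4 and 0.6, and NM_001081636 was at 1.3 and 1.9, 1.2 and 0.7, and 0.3 and 0.5 in the same order. The transcripts of a gene share exons and how reads were divided among them was not given, so these values are neither independent of the main transcript nor a measure of promoter use. A pseudogene, Ccnd3-ps, and the gene Bysl on the opposite strand, which overlaps Ccnd3, could exchange reads with it, since strand is not stated.

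Ccnd2, the most abundant cyclin, was at 54.9 and 71.4 RPKM in wild type, 69.7 and 64.4 in the ZnF1 mutant, with the ZnF4 mutant at 57.5 and 40.3. The spread within wild type and within the ZnF4 mutant was wide, and one ZnF4 library lay inside the wild-type range. The log2 fold change was -0.38 in the ZnF4 mutant (interval -0.84 to 0.09, adjusted p = 0.384) and 0.10 in the ZnF1 mutant (interval -0.37 to 0.56). Ccnd1, scarce in lymphocytes, was at 1.1 and 1.7 RPKM in wild type, 1.7 and 2.4 in the ZnF1 mutant and 1.1 in both ZnF4 libraries, with folds of 0.43 and -0.23 that did not pass (adjusted p = 0.607 and 0.722). Between the mutants, the ZnF4 libraries of both cyclins were below the ZnF1 libraries, but neither passed (adjusted p = 0.243 for Ccnd2 and 0.237 for Ccnd1).

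Summed over the 3 genes, D cyclin RNA was 105 and 126 RPKM in wild type, 117 and 114 in the ZnF1 mutant, while the ZnF4 mutant had 82.6 and 68.4. The ZnF4 sums were the lowest, and the wild-type and ZnF1 sums overlapped. Ccnd3 made up 46.5% and 42.2% of the sum in wild type, 39.0% and 41.5% in the ZnF1 mutant, with the ZnF4 mutant at 29.1% and 39.5%. The share in ZnF4 replicate 2 fell within the ZnF1 range, and Ccnd2 was also at its lowest in that library, at 40.3 RPKM. Ccnd1 was between 1.05% and 2.10% of the sum in every library.

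**Figure D2:**
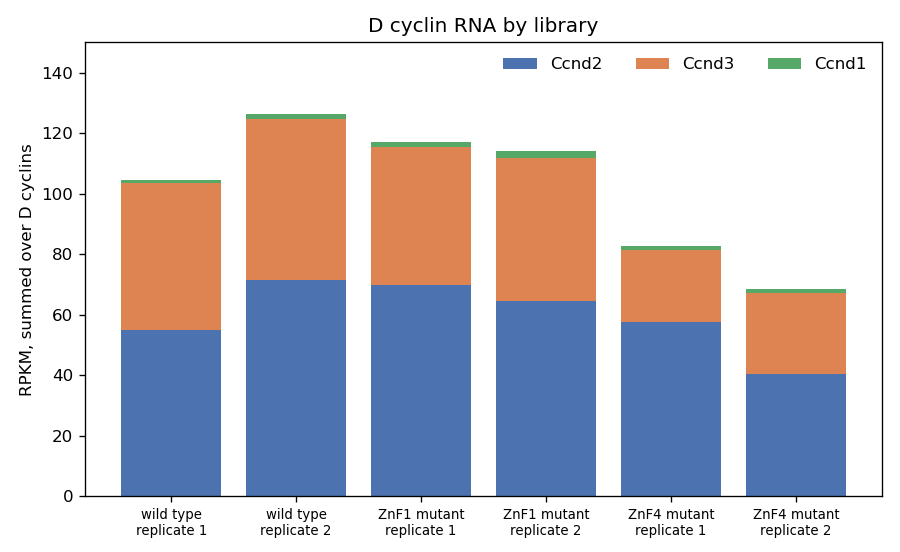
RPKM of Ccnd2, Ccnd3 and Ccnd1 stacked (vertical axis) in each of the 6 libraries (horizontal axis). The stacks of the ZnF4 mutant reach 82.6 and 68.4, against 105 to 126 in the other libraries.

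Neither kinase passed in any comparison. Cdk4, the more abundant kinase, was at 59.0 and 64.3 RPKM in wild type, 57.5 and 66.5 in the ZnF1 mutant, with the ZnF4 mutant at 52.2 and 73.3. The genotypes overlapped, and the ZnF4 pair was the widest. Its log2 fold change was 0.01 in either mutant, with intervals of -0.41 to 0.42 in both, so changes up to these bounds are not shown to be absent. Cdk4 overlaps Tspan31 on the opposite strand. Cdk6, at 5.2 and 6.5 RPKM in wild type, 5.1 and 5.3 in the ZnF1 mutant, while the ZnF4 mutant had 6.2 and 5.7, had folds of -0.15 (interval -0.53 to 0.24) and 0.03 (interval -0.36 to 0.415).

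Cdkn1a, which encodes the inhibitor p21Cip1, was at 4.7 and 6.1 RPKM in wild type, 5.1 in both ZnF1 libraries and 1.2 and 1.6 in the ZnF4 mutant. The ZnF1 values lay inside the wild-type range and the ZnF4 values far below it. The log2 fold change was -1.63 in the ZnF4 mutant against wild type (SE 0.20, 95% interval -2.11 to -1.15, limma adjusted p = 0.00909) and -1.57 against the ZnF1 mutant (SE 0.20, adjusted p = 0.00827). In the ZnF1 mutant it was -0.07 against wild type (interval -0.54 to 0.41, adjusted p = 0.942). Its fall in the ZnF4 mutant ranked 39 from the lowest among all tested genes. Values are rounded to steps of 0.1, and the added 0.5 makes this fold smaller than the ratio of the means.

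The second Cdkn1a transcript in the table, NM_007669, was at 0.3 and 0.4 RPKM in wild type, 0.3 and 0.2 in the ZnF1 mutant and 0.1 in both ZnF4 libraries. The calls of Cdkn1a and Ccnd3 against wild type were lost when any single library of wild type or of the ZnF4 mutant was left out, with adjusted p between 0.0669 and 0.123, while the folds stayed between -1.80 and -1.46 for Cdkn1a and between -1.07 and -0.90 for Ccnd3. Against the ZnF1 mutant the calls were lost only without either ZnF4 library (adjusted p between 0.0808 and 0.121), and without ZnF1 replicate 2 the folds were -1.57 and -0.83.

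The table's Cdkn1a and Ccnd3 transcripts begin at different annotated starts, so the 250 bases before each start are shown for the pair of genes that changed. Sequences are from RefSeq on GRCm38.p6, plus strand, whereas the submitters' processing notes name mm9 for the table. Cdkn1a lies on chromosome 17 and has an upstream start, that of NM_001111099, the abundant row (window chr17:29090729-29090978), and a downstream start, that of NM_007669 (window chr17:29093519-29093768). Ccnd3, also on chromosome 17, has an upstream start, that of its abundant row NM_001081635 and of NM_001081636 (window chr17:47504801-47505050), and a downstream start, that of NM_007632 (window chr17:47593217-47593466). Capitals mark ACATGT, which can form the centre of a p53 half-site but is not a whole one. They also mark TGGGAA, a core sequence bound by Ikaros, which reads TTCCCA where it lies on the other strand.
Cdkn1a, upstream start: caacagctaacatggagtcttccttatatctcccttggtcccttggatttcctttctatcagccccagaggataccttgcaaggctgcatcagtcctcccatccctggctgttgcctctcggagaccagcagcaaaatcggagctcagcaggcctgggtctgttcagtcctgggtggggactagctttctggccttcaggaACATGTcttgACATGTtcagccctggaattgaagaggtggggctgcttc
Cdkn1a, downstream start: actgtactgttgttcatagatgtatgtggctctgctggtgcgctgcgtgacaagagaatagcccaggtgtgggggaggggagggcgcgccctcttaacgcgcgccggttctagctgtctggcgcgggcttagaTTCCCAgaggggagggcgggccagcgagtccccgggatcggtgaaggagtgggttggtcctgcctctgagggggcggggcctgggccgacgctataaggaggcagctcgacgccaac
Ccnd3, upstream start: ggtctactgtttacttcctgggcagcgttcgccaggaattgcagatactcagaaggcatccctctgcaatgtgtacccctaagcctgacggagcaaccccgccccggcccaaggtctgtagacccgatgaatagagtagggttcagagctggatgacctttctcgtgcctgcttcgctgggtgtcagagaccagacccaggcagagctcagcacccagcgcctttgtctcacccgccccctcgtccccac
Ccnd3, downstream start: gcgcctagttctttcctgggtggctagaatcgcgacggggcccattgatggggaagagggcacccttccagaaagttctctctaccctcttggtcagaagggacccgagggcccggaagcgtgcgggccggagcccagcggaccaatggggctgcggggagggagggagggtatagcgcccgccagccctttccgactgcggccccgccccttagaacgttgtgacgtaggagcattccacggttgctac

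The upstream Cdkn1a window holds ACATGT 2 times, from 49 to 44 and from 39 to 34 bases before the start, a motif chosen after the sequence was seen. ACATGT, which reads the same on both strands, is in 4.58% of 32851 promoter windows of the same length, and 0.247% hold it at least 2 times. The whole p53 half-site, searched by its consensus on both strands, can have ACATGT as its centre. It is in 3 of 11 windows, the upstream one of Cdkn1a and those of Cdkn2d and Trp53, and in 7.13% of all windows. The upstream Cdkn1a window holds 2 such sites, gaACATGTct around the first marked copy and the unmarked ggactagctt. The second marked copy does not match the whole consensus, having t where a or g is needed. TGGGAA, searched on both strands, is in the downstream Cdkn1a window from 117 to 112 bases before the start, and neither motif is in the Ccnd3 windows. Of the 11 windows, which cover the 8 members with a promoter entry, TGGGAA is in 3, those of Cdkn1a (downstream), Cdkn2d and Cdk4, or 27.3% against 21.6% of all windows. These matches describe letters and not binding, and the deposited values do not show from which start a transcript was made.

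Cdkn1b, which encodes the inhibitor p27Kip1 and keeps resting lymphocytes out of the cycle, was the most abundant inhibitor. Its libraries had 49.9 and 48.2 RPKM in wild type, 42.2 and 33.7 in the ZnF1 mutant, with the ZnF4 mutant at 45.1 and 41.9. Both mutants lay below wild type without overlap, and ZnF1 replicate 2, the library rich in granulocyte RNA, was the lowest. Its fold in the ZnF1 mutant was -0.37 on the log2 scale (SE 0.14, interval -0.70 to -0.05, adjusted p = 0.353) and in the ZnF4 mutant -0.17 (interval -0.50 to 0.15, adjusted p = 0.571), and neither passed. Without ZnF1 replicate 2 the former was -0.21, and the part of the granulocyte RNA in it was not tested. With Cdkn1a lower, the ratio of Cdkn1b to Cdkn1a RPKM was 37.6 and 26.2 in the ZnF4 libraries, against 6.61 to 10.6 in the other 4 libraries.

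Cdkn2c, the INK4 inhibitor p18INK4c, was at 9.5 and 13.2 RPKM in wild type, 9.9 and 10.2 in the ZnF1 mutant, while the ZnF4 mutant had 7.8 and 9.4. The ZnF4 libraries were the lowest, by a margin of 0.1 under the lowest wild-type library, and the fold of -0.37 did not pass (interval -0.80 to 0.06, adjusted p = 0.356). In the ZnF1 mutant it was -0.15 (interval -0.58 to 0.28). Cdkn2d, the other INK4 inhibitor of the group, was listed at 0 in 4 libraries and at 0.1 in replicate 2 of each mutant, and it did not enter the test. Genes that every cell uses, such as Gapdh (0.4 to 0.6 RPKM) and Tpt1 (0.1 to 0.9), were also listed near 0, so the value of Cdkn2d is no evidence that its RNA was absent.

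Trp53 was at 41.8 and 45.4 RPKM in wild type, 49.9 and 55.7 in the ZnF1 mutant, with the ZnF4 mutant at 42.2 and 44.5. The ZnF1 libraries were above all others and the ZnF4 libraries lay within the wild-type range. Its fold in the ZnF1 mutant was 0.27 on the log2 scale (SE 0.12, interval -0.01 to 0.55, adjusted p = 0.439) and -0.01 in the ZnF4 mutant (interval -0.29 to 0.27, adjusted p = 0.985). Its second transcript, NM_011640, was also highest in the ZnF1 mutant, at 17.0 and 16.9 RPKM in wild type, 19.9 and 25.2 in the ZnF1 mutant, while the ZnF4 mutant had 17.4 and 18.4, both just above wild type. A pseudogene, Trp53-ps, could share reads with it.

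**Figure D3:**
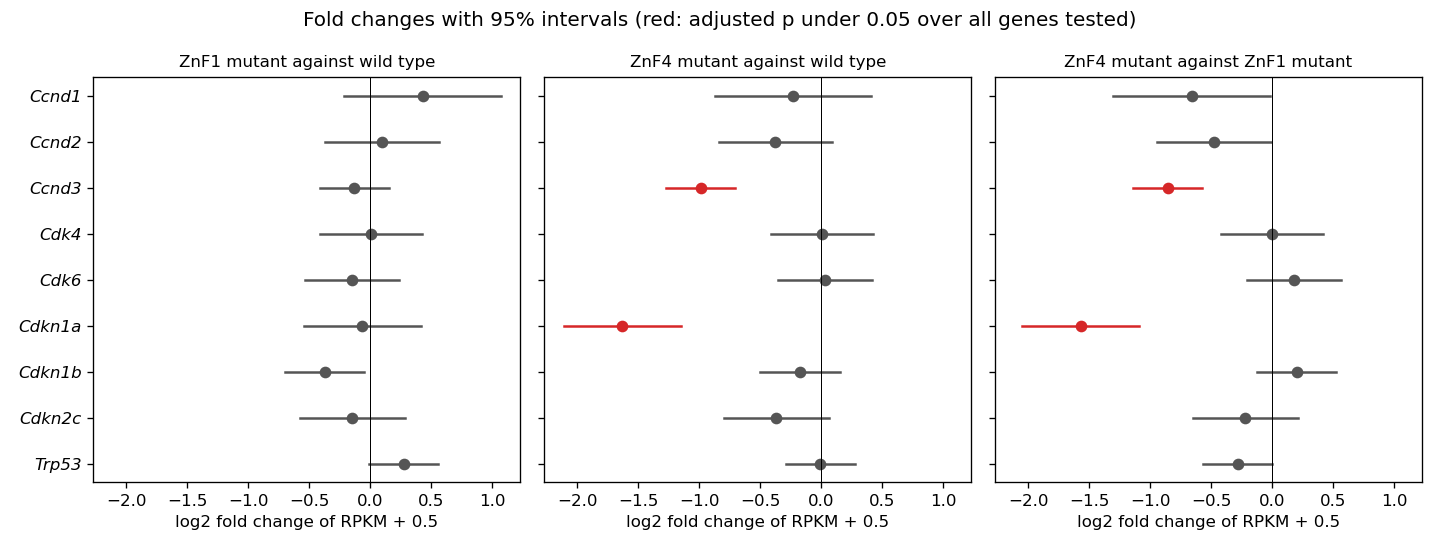
Log2 fold change of RPKM + 0.5 (horizontal axes) with 95% intervals for the 9 tested genes in the 3 comparisons, in red where the adjusted p over all tested genes was under 0.05. Only Ccnd3 and Cdkn1a are red, in both comparisons with the ZnF4 mutant.

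Over the 9 tested members, the median fold in the ZnF1 mutant was -0.07 on the log2 scale, with 4 members higher, 5 lower and 0 called by limma (1, Cdkn1b, had an unadjusted p under 0.05, as did 11.9% of all tested genes). All tested genes had a median of -0.0019 and 0.271% of them were called, 0.0969% higher and 0.174% lower. In the ZnF4 mutant the member median was -0.23 with 2 higher and 7 lower, beside -0.02 over all tested genes, of which 3.2% were called in either direction. The ZnF4 against the ZnF1 mutant gave -0.28 with 3 higher and 6 lower, beside -0.03 and 4.78% called. Libraries did not overlap for 3 members in the ZnF1 mutant, 4 in the ZnF4 mutant and 7 between the mutants, where 41.5%, 50.4% and 46.8% of all tested genes did not.

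Among themselves the members varied in different ways. Over the 6 libraries the 36 pairs of tested members had Pearson correlations of log2 values from -0.87, for Cdkn1b with Trp53, to 0.99, for Cdkn1a with Ccnd3, and 11 were negative. These are descriptions over 6 libraries that share genotypes. The genes whose centred log2 values lay closest to those of Cdkn1a were Crip1 (distance 0.377), Cmpk2 (0.444) and Slfn2 (0.459). Crip1 was at 239 and 215 RPKM in wild type, 220 and 196 in the ZnF1 mutant, with the ZnF4 mutant at 62.0 and 79.9. Those closest to Ccnd3 were Lpin2 (0.126), Arhgap25 (0.188) and Rnf130 (0.205), and Lpin2 was at 15.1 and 16.8, 15.1 and 16.0, and 7.3 and 8.1 RPKM in the same order. In each of these genes, which were picked for this likeness, the ZnF4 pair lay below the other 4 libraries. Those 4 were not always at one level: Cmpk2 was at 20.1 and 31.7 RPKM in wild type and 23.8 and 21.5 in the ZnF1 mutant.

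The next steps of the pathway were read from a list of 28 other G1 and S phase entry genes, of which 25 were tested. In the ZnF4 mutant 1 fell and 24 did not pass, and 21 of the 25 folds were negative with a median of -0.21. Over all tested genes 1.41% were called lower, 52.8% of folds were negative and the median was -0.02. The gene was E2f2, an E2F factor that acts downstream of the D cyclins. E2f2 was at 89.0 and 113 RPKM in wild type, 79.3 and 84.7 in the ZnF1 mutant, while the ZnF4 mutant had 45.6 and 39.6 (log2 fold change -1.23, SE 0.15, limma adjusted p = 0.00883). Its ZnF4 libraries were the lowest, and the ZnF1 libraries lay just below wild type. Over 15 alternatives the fold lay between -1.40 and -1.06 and the call held in 10, being lost without a filter and without either wild-type or either ZnF4 library.

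Against the ZnF1 mutant, 2.08% of all tested genes were called lower in the ZnF4 mutant, and the median fold over all was -0.03. From the G1 and S phase entry list 4 genes were lower and 21 did not pass, with a median of -0.37. They were Ccne1, which encodes cyclin E1 (-1.19, adjusted p = 0.00794), E2f2 (-0.94, adjusted p = 0.0188), E2f1 (-1.04, adjusted p = 0.0332) and Ccna2, which encodes cyclin A2 (-0.75, adjusted p = 0.0451). Ccne1 was at 7.1 and 7.4 RPKM in wild type, 9.2 and 11.1 in the ZnF1 mutant, with the ZnF4 mutant at 4.0 and 4.3, so the 3 genotypes did not overlap. The count fell to 2 when a term for sex was added, and it was 1 without ZnF1 replicate 2, 6 without ZnF1 replicate 1 and 0 without either ZnF4 library. The call of Ccna2 held in 5 of 15 alternatives, and was lost with the replicate block, quantile normalization, a sex term and only the genotypes compared. In the ZnF1 mutant against wild type 0 of the 25 passed by limma. The unadjusted p was under 0.05 for 2 of them and for 11.9% of all tested genes. The smallest p-values were those of Cdk2 (0.47, adjusted p = 0.240) and Ccne1 (0.45, adjusted p = 0.309).

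Over all tested genes in the ZnF4 mutant against wild type, 52.8% of folds were negative, with a median of -0.02. The unadjusted limma p was under 0.05 for 17.4% of them. Genes of S phase and mitosis formed a further list. Of 24 tested, 23 had a negative fold in the ZnF4 mutant against wild type with a median of -0.50 (-0.29 without wild-type replicate 2), and 0 passed by limma (8 had an unadjusted p under 0.05), or 2 without either ZnF1 library. Top2a, the topoisomerase of replicating chromosomes, was at 29.9 and 40.2 RPKM in wild type, 35.3 and 44.1 in the ZnF1 mutant, while the ZnF4 mutant had 20.5 and 16.3 (-0.91, adjusted p = 0.0571), and Aurkb, a mitotic kinase gene, had -0.95 (adjusted p = 0.0912). Against the ZnF1 mutant 2.08% of all tested genes were called lower, and their median fold was -0.03. From this list 4 were lower and 20 did not pass, with a median of -0.77. They were Top2a (-1.09), Birc5, the survivin gene (-0.94), the ribonucleotide reductase gene Rrm2 (-1.22) and the spindle motor gene Kif11 (-0.91), with adjusted p between 0.0247 and 0.0473. Without ZnF1 replicate 2 the count was 0 and the median -0.43, without ZnF1 replicate 1 they were 9 and -1.01, and the count was 1 without either wild-type library and 0 without either ZnF4 library. It was 2 when sex was a term and 2 after quantile normalization, with Rrm2 and Kif11 lost in both. With the replicate block it was 5, and Kif11 was lost. All 4 calls were lost without a filter, and those of Birc5, Rrm2 and Kif11 with only the genotypes compared. Birc5 was also lost with the mean of a gene's rows. ZnF1 replicate 2 was the library rich in granulocyte and erythroid markers, and their part in this result was not tested.

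Among all tested genes in the ZnF4 mutant, 1.78% were called higher and 1.41% lower against wild type, where 52.8% of folds were negative. Against the ZnF1 mutant 2.69% were called higher. A list of other p53 pathway genes was read beside these shares and beside Cdkn1a. Of 20 tested, 0 were called lower and 1 rose in the ZnF4 mutant against wild type by limma, and 14 folds were positive with a median of 0.20 (0.02 without ZnF4 replicate 2 and 0.33 without replicate 1). Without either ZnF1 library 2 were called higher and 1 lower, and with the replicate block 1 higher and 1 lower. The gene in the full fit was Pmaip1, which encodes the BH3-only protein Noxa, at 3.1 and 2.3 RPKM in wild type, 3.9 and 3.4 in the ZnF1 mutant, with the ZnF4 mutant at 9.2 and 10.2 (1.68, adjusted p = 0.00658). Against the ZnF1 mutant Pmaip1 (1.30, adjusted p = 0.0122) and Plk2, a polo-like kinase gene (1.94, adjusted p = 0.0078), were higher. Plk2 was at 5.0 and 4.4 RPKM in wild type, 2.5 and 1.4 in the ZnF1 mutant, while the ZnF4 mutant had 7.7 and 9.7, so wild type lay between the mutants. In the ZnF1 mutant 0 of the 20 passed by limma, and Plk2 had -1.12 (adjusted p = 0.150). The unadjusted p was under 0.05 for 6 of the 20 and for 11.9% of all tested genes. The call of Pmaip1 against wild type was lost when any 1 of the wild-type or ZnF4 libraries was left out, and the Plk2 call without either ZnF4 library or without a filter.

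Of 15 transcription factors known to act on these genes, 2 fell in the ZnF4 mutant, 13 did not pass, and the median was -0.10. Over all tested genes 1.41% were called lower and the median was -0.02. Foxo1, a factor that activates inhibitor genes in resting lymphocytes, was at 79.7 and 72.3 RPKM in wild type, 70.9 and 55.2 in the ZnF1 mutant, with the ZnF4 mutant at 47.8 and 39.5 (-0.80, adjusted p = 0.0492). Egr1, an early response factor, was at 33.5 and 38.5 RPKM in wild type, 21.5 and 18.8 in the ZnF1 mutant, while the ZnF4 mutant had 22.9 and 20.2. Its log2 fold change was -0.73 in the ZnF4 mutant (adjusted p = 0.0390) and -0.82 in the ZnF1 mutant (adjusted p = 0.0819), so both mutants lay below wild type and only the former passed. Both ZnF4 calls were lost with a term for sex, with quantile normalization, without a filter and when any 1 of the wild-type or ZnF4 libraries was left out. With the replicate block Egr1 was lost too, leaving 1 call, and Foxo1 was also lost with a pseudocount of 1 and with the mean of a gene's rows. Bcl6, a repressor of Cdkn1a in germinal centre B cells, was lower in the ZnF4 than in the ZnF1 mutant (-0.67, adjusted p = 0.0247), at 19.7 and 20.4 RPKM against 33.2 and 31.3, with wild type at 30.7 and 27.2, and this call was lost when any 1 of the 6 libraries was left out. In the ZnF1 mutant 0 of the 15 passed by limma, with a median of -0.16. The unadjusted p was under 0.05 for 3 of the 15 and for 11.9% of all tested genes.

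**Figure D4:**
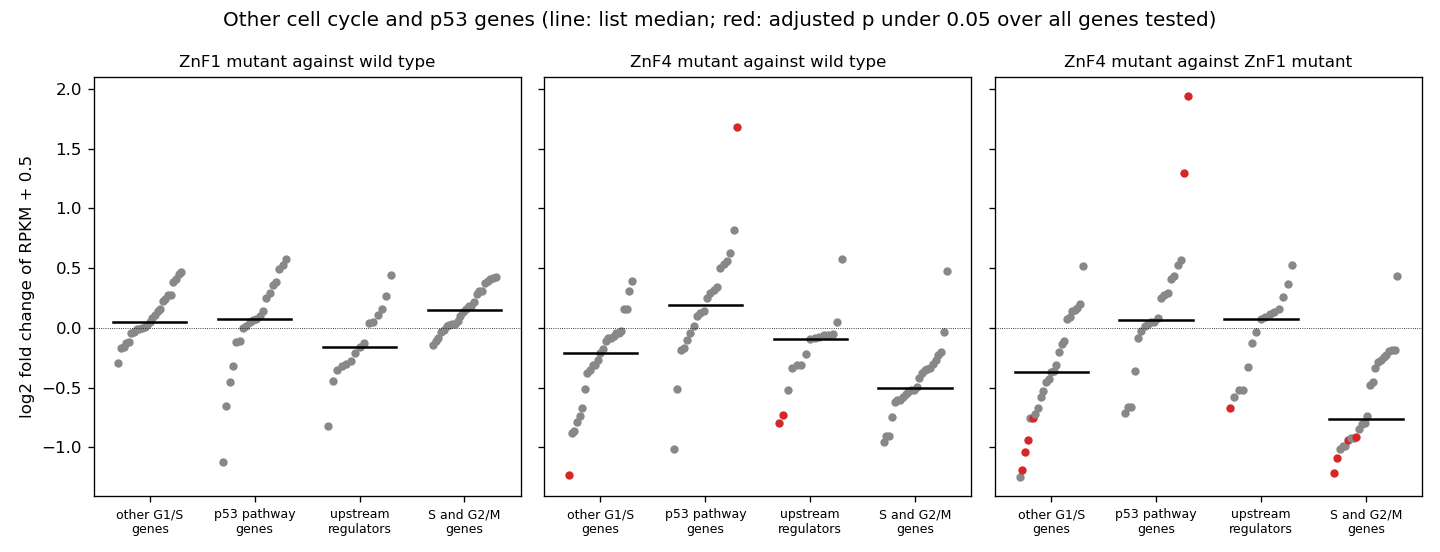
Log2 fold change of RPKM + 0.5 (vertical axis) of each tested gene in 4 lists (horizontal axes) for the 3 comparisons, ordered by value within a list, with a line at the list median and red for genes with an adjusted p under 0.05. In the ZnF4 mutant against wild type the medians are -0.21 for other G1 and S phase entry genes, 0.20 for p53 pathway genes, -0.10 for upstream regulators and -0.50 for S and G2/M genes.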

How the data were processed

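Poly(A)-enriched mRNA of sorted IgM+ marrow B cells was sequenced in 6 libraries. The authors deposited RPKM per RefSeq transcript with transcript lengths, rounded to steps of 0.1. TopHat, bedtools and mm9 are named per the submitters' processing notes. Their versions, the reads counted and strand handling are not given in the sources used here. Of 26532 rows, 1 held no values.

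Each gene name was represented by its highest-mean row. Genes with a mean of at least 1 RPKM (10322, 9 of the 10 members) were tested on log2(RPKM + 0.5) with limma 3.58.1 in R 4.3.3 (one coefficient per genotype, all 6 libraries, intensity trend, two-sided) and Benjamini-Hochberg adjustment over all tested genes. The fit was run on data simulated with independent normal noise of its own estimated spread. These held no library that stood apart and no difference of sex, so the run is no check of such effects. Without counts no counting interval can be given, and 2 libraries per genotype limit the precision. Promoters were read from RefSeq for 8 members.

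The members and lists were chosen with earlier results of these data known. Named genes were all members, the 3 genes nearest in centred log2 values to each called member, Ikzf1, and from each list up to 4 called genes, or the 2 with the smallest p as values. Alternatives were 2 pseudocounts, 2 filters, quantile normalization, the mean of a gene's rows, only the genotypes compared, a replicate block, a term for sex and leaving out each library.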

Additional observations from a re-analysis of the deposited data

How the results depend on the processing

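The member calls, 0 in the ZnF1 mutant against wild type and 2 in each comparison with the ZnF4 mutant, had the same number under every alternative except a mean of at least 5 RPKM, which leaves out Cdkn1a and Ccnd1 and gave 1 in both ZnF4 comparisons, and leaving out single libraries, which gave 0 to 2. Of 399 member values under alternatives, 369 kept direction and side of the threshold and 12 were called falls of Cdkn1a or Ccnd3 that lost the call without 1 library. Another 18 changed sign, none of them called: with a term for sex Cdk4 had -0.17 in each mutant against wild type, with quantile normalization Cdk6 had -0.0225 and Trp53 0.0844 in the ZnF4 mutant, and with the mean of all rows Trp53 had 0.0164 there. Leaving out each library gave -0.24 to 0.11 for Cdkn1a, -0.38 to 0.0771 for Cdkn2c, -0.0911 to 0.285 for Ccnd2 and -0.10 to 0.11 for Cdk4 in the ZnF1 mutant, -0.24 to 0.25 for Cdk4, -0.12 to 0.18 for Cdk6 and -0.0664 to 0.0514 for Trp53 in the ZnF4 mutant, and -0.24 to 0.24 for Cdk4 between the mutants. The cause was not tested.

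Counts over all genes moved more. The ZnF1 count of 28 was 0 without a filter, 13 with quantile normalization, 0 with only the genotypes compared, 0 with a term for sex, and 0 to 512 when a library was left out. The 3 limma fits that called 0 had 1596, 1053 and 863 genes with an unadjusted p under 0.05, in that order. The ZnF4 count of 330 was 189 without a filter, 212 at a mean of at least 5 RPKM, 594 with only the genotypes compared, 171 with a term for sex, and 0 to 591 when a library was left out. The count of 493 between the mutants was 309 without a filter, 249 with only the genotypes compared, and 0 to 814 when a library was left out. With the replicate block the counts were 27, 327 and 529, and no call of the 10 genes changed; those of listed genes that did are given with their lists. Deviations of same-numbered libraries correlated at 0.28, -0.03 and 0.21, so the numbers were not taken to pair libraries. Calls of listed genes without single libraries were examined after seeing the data.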
